A study of Mus musculus with 8 samples.

Results

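Cells answer misfolded protein and nutrient shortage through separate transcriptional programs, and 32 genes of 3 such programs were followed here in the basilar membrane of the mouse cochlea. The genes were taken from the deposited expression table by gene name, and they were chosen with earlier results of these data known. They comprised 13 genes of the heat shock branch, 7 of the endoplasmic reticulum (ER) branch and 12 of the ATF4 branch, out of 78317 genes in the table. J-domain genes were left out of the set. The name Ddit3 stood on 2 rows, of which one was listed at 0 in every library and was not used, so the 32 names took 33 rows.

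The study compared 2 groups of 4 libraries from mice at postnatal day 6. The homo group carried a conditional knockout of Dnajc17, and the hete group is labelled wild type in its genotype tag although its title reads hete. The labels therefore do not settle which Dnajc17 alleles the hete mice carried, and the sources used here give neither the Cre driver nor the deleted exons nor the mouse strain. The labels leave out whether libraries came from different animals, and p-values here reflect library-to-library spread, which may be technical. Each library was made from mRNA of 1 µg of total RNA of the whole basilar membrane, in which fewer cells of a type and less RNA per cell cannot be told apart.

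In the heat shock branch, the transcription factor HSF1 is released from chaperones when misfolded proteins occupy them and switches on chaperone genes. In the ER, the sensors IRE1, PERK and ATF6 detect unfolded protein, and XBP1 and ATF6 then induce chaperones of the ER lumen. PERK and other kinases phosphorylate the initiation factor eIF2, which favours translation of the transcription factor ATF4 and the transcription of genes for amino acid synthesis and for the stress regulators CHOP and TRIB3. Because ATF4 and HSF1 are controlled largely after transcription, the levels of their targets are the usual readout at the RNA level. DNAJC17 belongs to the J-domain proteins, whose founding members deliver clients to HSP70 chaperones and stimulate their ATPase.

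The promoters were searched for short letter patterns named for each branch. RefSeq promoters of build GRCm38.p6 were found for 28 of the 32 genes, and the 250 bases before each start were searched on both strands. Hsf1, Hsp90aa1, Hsp90ab1 and Hspa8 had no entry. The heat shock element was searched as GAANNTTC or TTCNNGAA. It was present in 6 of 9 heat shock genes, 0 of 7 ER genes and 2 of 12 ATF4 genes (Asns and Shmt2), against 14.5% of all 27025 genes with a promoter. The ER stress element, CCAAT and CCACG with 9 bases between them, was present in 3 of 7 ER genes, in none of the other members with an entry, and in 0.13% of all genes. The ATF4 site, searched as TGATGNAA, was present in 3 of 12 ATF4 genes, in 1 of 7 ER genes, in 0 of 9 heat shock genes and in 3.91% of all genes. A match describes the letters only and is not evidence of binding in these samples.

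Windows around these matches are shown for a part of the genes whose values are discussed next. The matched letters are in capitals, with 20 flanking bases where the window allows. Hsp90b1, Hspb1, Hsph1, Hspd1 and Shmt2 also had matches, and no windows are printed under their names. In Creld2, Herpud1, Atf3 and Chac1 the match lies on the strand opposite to the letters shown. In Asns the ATF4 site overlaps a heat shock element match. Hspa1a and Hspa1b, the stress-inducible HSP70 genes, had identical letters in the window shown. The window of Hspe1 holds 3 overlapping matches, and the promoter of its neighbour Hspd1 on the opposite strand holds them too.
Hspa1a, heat shock element, chr17:34972233-34972280, minus strand: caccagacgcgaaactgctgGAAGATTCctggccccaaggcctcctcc
Hspa1b, heat shock element, chr17:34959315-34959362, minus strand: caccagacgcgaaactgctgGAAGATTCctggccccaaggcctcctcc
Hspe1, heat shock element, chr1:55088039-55088096, plus strand: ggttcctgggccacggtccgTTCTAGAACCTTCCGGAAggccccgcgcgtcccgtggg
Hspa5, ER stress element, chr2:34772005-34772063, plus strand: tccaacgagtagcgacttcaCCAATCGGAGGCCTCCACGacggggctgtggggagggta
Creld2, ER stress element, chr15:88819500-88819558, plus strand: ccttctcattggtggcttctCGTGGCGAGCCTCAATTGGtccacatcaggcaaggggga
Herpud1, ATF4 site, chr8:94386297-94386344, plus strand: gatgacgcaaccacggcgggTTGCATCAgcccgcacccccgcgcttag
Asns, ATF4 site, chr6:7693210-7693252, minus strand: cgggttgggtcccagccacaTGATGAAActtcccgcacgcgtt
Atf3, ATF4 site, chr1:191183416-191183463, minus strand: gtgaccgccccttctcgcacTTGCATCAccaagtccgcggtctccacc
Chac1, ATF4 site, chr2:119351029-119351076, plus strand: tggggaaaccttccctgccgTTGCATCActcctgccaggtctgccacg

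Levels are given in TPM (transcript abundance scaled for transcript length and to a common total), so they can be compared between genes. The deposited values add up to 1000000 in each library within 1, and the read depth behind them is unknown. Between 28159 and 28969 genes stood above 0 in a library, and transcripts encoded in mitochondria took 8.69 to 10.4% of the TPM. The mitochondrial share did not differ beyond the spread between libraries (two-sided exact permutation test, p = 0.429). Hair cell and supporting cell markers were present in every library. The hair cell transcription factor Pou4f3 had 15.17 to 20.37 TPM in hete and 12.65 to 18.15 TPM in homo. The tectorial membrane gene Tecta had 290.87 to 537.51 TPM in hete and 614.46 to 686.99 TPM in homo. The groups of Tecta were free of overlap, as for 3.99% of all genes tested. Dnajc17 itself, measured over the whole gene, had 24.8 ± 1.91 TPM in hete and 26.5 ± 5.83 TPM in homo (SD, n = 4 each). A gene-level value of mixed tissue checks neither a deleted exon nor the labels.

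Hsp90ab1, the constitutive cytosolic HSP90, and Hspa8, the constitutive HSP70, led with means over the 8 libraries of 1316 and 1246 TPM and overlapping library values. The ER chaperones Hspa5 (BiP) and Hsp90b1 (GRP94) followed at 786 and 684 TPM, and they overlapped likewise. At the lower end of the heat shock branch stood Hspa1b at 6.61 TPM and Hspa1a at 3.77 TPM. The ATF4 branch ran from Phgdh at 152 TPM and Atf4 at 138 TPM down to Trib3 at 2.31 TPM, Atf3 at 2.15 TPM and Chac1 at 0.875 TPM. The ER branch had no low member, with Sdf2l1 as its lowest gene at 54.4 TPM. The median of the tested members was 74.3 TPM in the heat shock branch, 132.7 TPM in the ER branch and 21.0 TPM in the ATF4 branch, against 14.1 TPM over all genes tested.

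**Figure D1:**
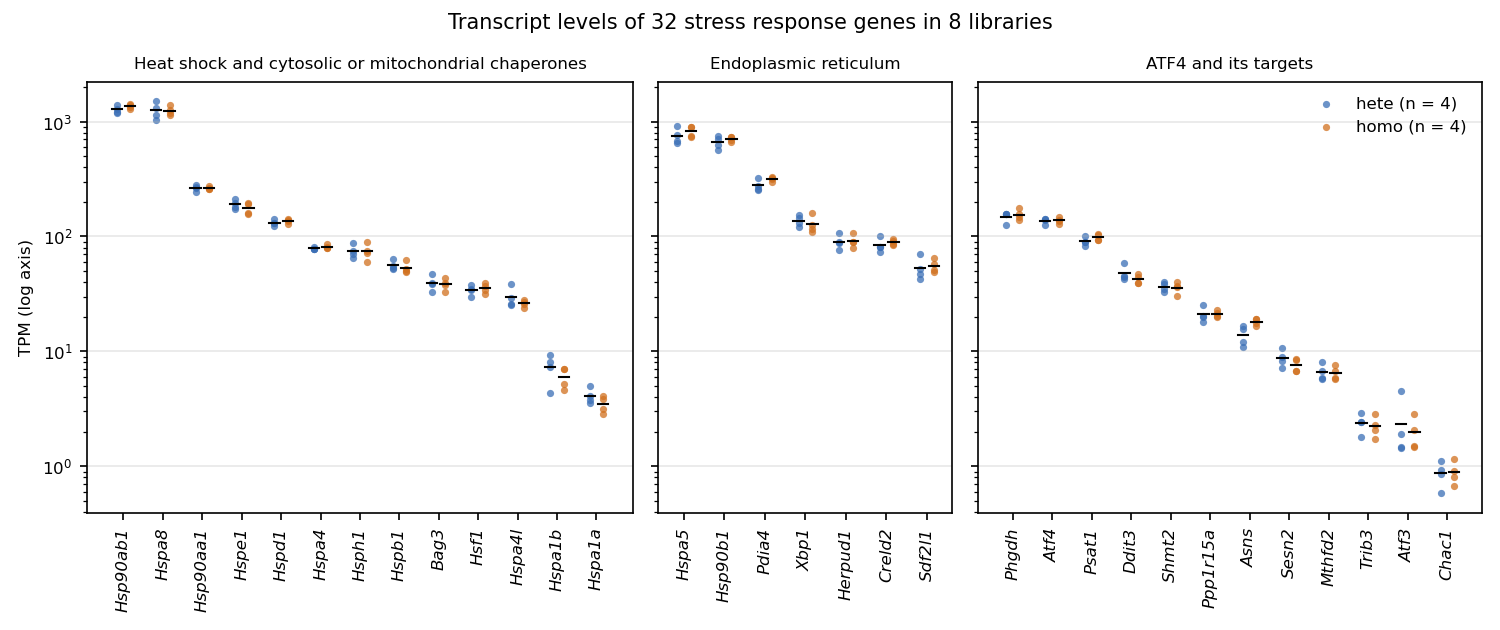
TPM of the 32 genes on a log axis, by branch and in order of mean level, with a point for each library and a black bar for the mean of each group of 4. Hete and homo points overlap for every gene, and levels span from 0.875 TPM for Chac1 to 1316 TPM for Hsp90ab1.

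The comparison asks whether homo, labelled as the conditional knockout of Dnajc17, differs from hete in stress response genes at the RNA level. All genes averaging 1 TPM or more were tested with limma-trend on log2(TPM + 1), with Benjamini-Hochberg adjustment over all 17811 genes tested. A difference on this scale understates that of genes with low TPM. Of the members, 31 were tested, and Chac1 lay under the minimum. None of the 31 changed at an adjusted p under 0.05, where 0.0112% of all genes did (2 genes). The smallest adjusted p of a member was 0.710, for Asns. At an unadjusted p under 0.05 there were 2 members, Asns and Pdia4, against 6.05% of all genes, so the members' count was near the background. Both were higher in homo, as were 3.56% of all genes at that p, and no member was lower, as were 2.49% of all genes. In none of the 31 were the groups free of overlap, as they were for 3.99% of all genes. The differences were small: 30 of 31 had a log2 fold change within 0.25 of 0, as did 85.5% of all genes.

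**Figure D2:**
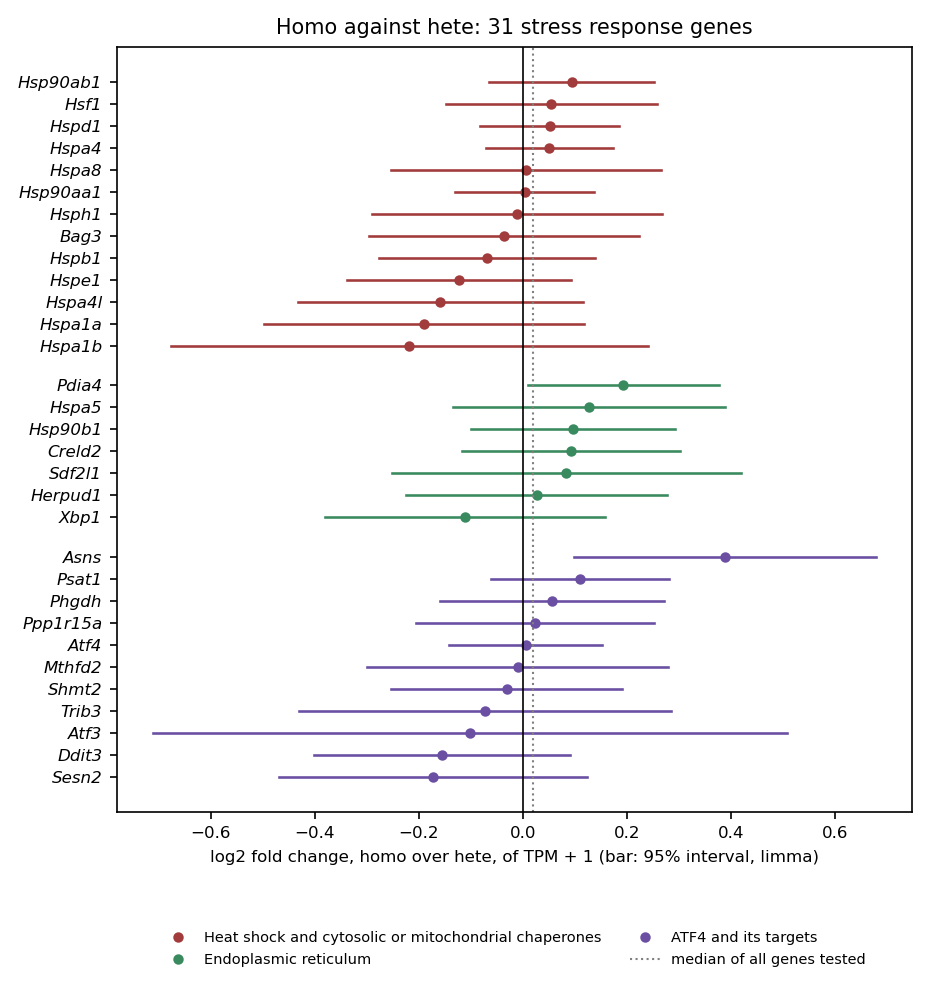
Log2 fold change of homo over hete on the TPM + 1 scale, with 95% intervals from limma, for the 31 tested members ordered within each branch, and a dotted line at the median of all genes tested. The intervals of Pdia4 and Asns lie above 0 without adjustment, and all other intervals include 0.

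The median log2 fold change was -0.01 in the heat shock branch, 0.09 in the ER branch and -0.01 in the ATF4 branch, against 0.02 over all genes tested. These medians are descriptions without a test, and their order rests on single libraries: without hete replicate 2 the median was 0.03 in the ER branch and 0.08 in the ATF4 branch. As a mean of log2(TPM + 1) over its tested members, the heat shock branch had 6.34 ± 0.09 in the hete libraries and 6.29 ± 0.04 in the homo libraries (SD, n = 4 each). The ER branch had 7.54 ± 0.17 in the hete libraries and 7.61 ± 0.10 in the homo libraries. For the ATF4 branch these means were 4.51 ± 0.12 and 4.51 ± 0.06. In each branch the difference between groups was smaller than the spread between hete libraries. The ranges of the library means overlapped in all 3 branches.

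In the heat shock branch, 6 members had a positive and 7 a negative log2 fold change, or 4 and 9 after rescaling over protein-coding nuclear genes, and none changed. Without hete replicate 1 or homo replicate 1 the split was also 4 and 9, and without hete replicate 3 or homo replicate 4 it was 7 and 6. Hsf1, the transcription factor of the branch, had 29.85, 33.88, 37.87 and 35.22 TPM in hete, here and below in the order of replicates 1 to 4, and 38.97, 34.46, 36.95 and 31.79 TPM in homo. Its groups overlapped, with the lowest value in hete replicate 1 and the highest in homo replicate 1 (log2 fold change 0.05, SE 0.09). Hsp90aa1, the inducible cytosolic HSP90, had 264.55, 242.51, 268.39 and 278.31 TPM in hete and 275.61, 262.34, 257.21 and 259.95 TPM in homo. Its groups overlapped, and its log2 fold change was 0.00, with an interval of -0.13 to 0.14. Hspa4, an HSP110-type exchange factor of HSP70, varied least of all members across the 8 libraries, with a coefficient of variation of 3.76% and a log2 fold change of 0.05 (SE 0.05).

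Hsp90ab1 had 1222.32, 1291.97, 1400.43 and 1180.74 TPM in hete and 1335.64, 1383.59, 1420.44 and 1289.39 TPM in homo. All 4 homo values lay above the hete mean, yet only homo replicate 3 exceeded the highest hete value (log2 fold change 0.09, SE 0.07). Within a library, Hsp90ab1 stood at 4.24 to 5.52 times the level of Hsp90aa1. Over hete libraries that ratio averaged 4.85 ± 0.51 and over homo libraries 5.15 ± 0.31 (SD, n = 4 each).

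Hspa1a and Hspa1b, which respond to heat shock through elements like those shown above, were low in all libraries. Hspa1b had 7.37, 4.38, 9.21 and 8.01 TPM in hete and 4.61, 7.05, 7.04 and 5.23 TPM in homo. Hspa1a had 4.95, 3.55, 4.06 and 3.78 TPM in hete and 4.06, 3.81, 3.13 and 2.85 TPM in homo. No homo value of either gene exceeded the highest hete value, and hete replicate 2 held the lowest Hspa1b value.

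Their annotated transcripts share 99.2% identity over 2201 aligned bases, so reads may not be divided between them correctly. Added together, they had 12.32, 7.93, 13.27 and 11.79 TPM in hete and 8.67, 10.86, 10.17 and 8.08 TPM in homo. The sum overlapped between groups, at 11.3 ± 2.35 TPM in hete and 9.45 ± 1.29 TPM in homo (SD, n = 4 each). Taken singly, the log2 fold changes were -0.19 (SE 0.14; adjusted p = 0.879) for Hspa1a and -0.22 (SE 0.21; adjusted p = 0.911) for Hspa1b by limma-trend. That of Hspa1b was -0.41 without hete replicate 2 and -0.10 without hete replicate 3.

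Hspa8, which folds nascent proteins and uncoats clathrin vesicles in unstressed cells, could not be read alone. It had 1136.05, 1307.56, 1505.82 and 1041.76 TPM in hete and 1391.47, 1135.48, 1182.29 and 1265.68 TPM in homo. Gm15459, a processed pseudogene whose transcript matches that of Hspa8 with 99.7% identity over 1941 bases, was named after its values were seen. It had 158.76 TPM in hete replicate 1, was listed at 0 in hete replicate 2, and had 0.61 and 353.45 TPM in hete replicates 3 and 4. In homo it had 212.81, 382.18 and 192.97 TPM in replicates 1 to 3 and was listed at 0 in replicate 4. The pseudogene was thus present or nearly absent by library in both groups, and took up to 25.3% of the sum of the pair.

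The sum of Hspa8 and Gm15459 had a coefficient of variation of 8.68% across the 8 libraries, against 12.2% for Hspa8 alone. The smaller spread was in hete and not in homo. Hspa8 alone had 1248 ± 204.2 TPM in hete and 1244 ± 112.3 TPM in homo (SD, n = 4 each). The sum was 1376 ± 97.7 TPM in hete and 1441 ± 150.1 TPM in homo (SD, n = 4 each). The log2 fold change was 0.01 (SE 0.12) for Hspa8 alone and 0.06 (SE 0.09) for the sum, and neither changed by limma-trend (adjusted p = 0.998 and 0.946). The other near-identical copies of members in the table, apart from Hspa1a and Hspa1b, had means of at most 0.115 TPM.

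**Figure D3:**
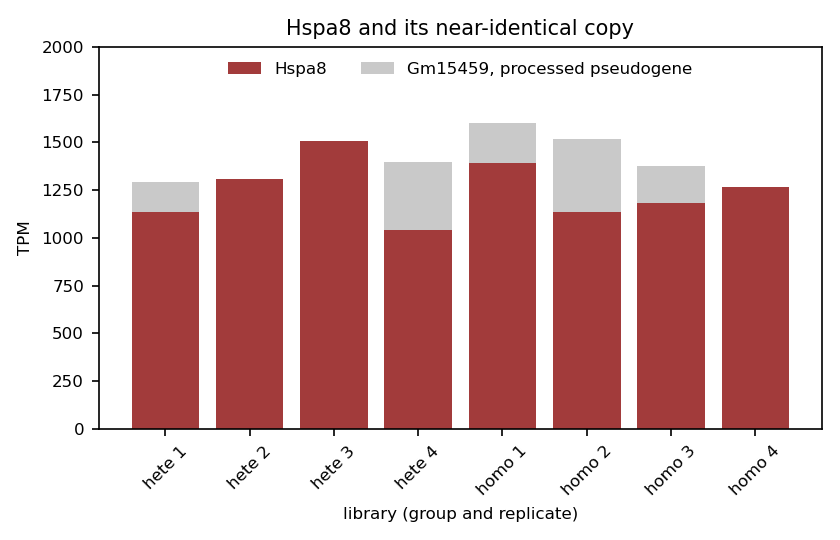
TPM of Hspa8 (red) and of its processed pseudogene Gm15459 (grey, stacked on top) in each library. The pseudogene takes 25.3% of the sum in hete replicate 4 and is listed at 0 in hete replicate 2 and homo replicate 4.

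The mitochondrial chaperonin subunits Hspd1 (HSP60) and Hspe1 (HSP10), which start on opposite strands from the shared promoter shown above, gave differences of opposite sign. Hspd1 had 130.24, 131.52, 141.44 and 124.45 TPM in hete and 139.53, 142.74, 129.41 and 135.08 TPM in homo. Hspe1 had 212.12, 180.53, 196.48 and 173.18 TPM in hete and 158.5, 194.5, 155.91 and 192.88 TPM in homo. The 2 lowest Hspe1 values were in homo replicates 1 and 3, and the groups overlapped. Their ratio, Hspe1 over Hspd1, averaged 1.45 ± 0.12 over hete libraries and 1.28 ± 0.14 over homo libraries (SD, n = 4 each). The log2 fold change was 0.05 (SE 0.06) for Hspd1 and -0.12 (SE 0.10) for Hspe1.

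The remaining heat shock members overlapped between groups as well. Bag3, a co-chaperone that links HSP70 to autophagy, gave a log2 fold change of -0.04 (SE 0.12). The small heat shock protein gene Hspb1 gave -0.07 (SE 0.09). Hsph1, another HSP110, had -0.01 (SE 0.12), with its lowest value in homo replicate 4 (59.91 TPM) and its highest in homo replicate 1 (90.12 TPM). Hspa4l, a relative of Hspa4, had 25.84, 25.51, 29.2 and 38.19 TPM in hete and 28.03, 23.83, 25.8 and 27.04 TPM in homo. Hete replicate 4 stood above all other libraries for Hspa4l, and without it the log2 fold change went from -0.16 to -0.04. No interval of a heat shock member reached above 0.27 on the log2(TPM + 1) scale, and the lowest bound was -0.68, for Hspa1b.

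The ER branch held 6 members with a positive log2 fold change and 1 with a negative, against 56.3% positive over all genes tested, and none changed. Under quantile normalization the split was 5 and 2, as Herpud1 moved to the negative side. Pdia4, a disulfide isomerase of the ER lumen, had the largest difference. It had 253.88, 274.77, 324.9 and 257.35 TPM in hete and 320.16, 328.03, 315.89 and 300.41 TPM in homo. All homo values and hete replicate 3 lay above 300 TPM, and the other 3 hete libraries lay below. The means were 277.7 ± 32.8 and 316.1 ± 11.6 TPM (SD, n = 4 each), with a log2 fold change of 0.19 (SE 0.08; limma-trend, unadjusted p = 0.0417, adjusted p = 0.810).

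Hspa5, the HSP70 of the ER and the usual readout of the unfolded protein response, had 683.48, 649.68, 916.27 and 764.22 TPM in hete. In homo it had 901.96, 890.23, 755.13 and 730.78 TPM. The highest value was in hete replicate 3, above every homo library (log2 fold change 0.13, SE 0.12). That of Hspa5 was 0.06 without hete replicate 2 and 0.23 without hete replicate 3. Hsp90b1 had 626.23, 570.8, 743.78 and 708.36 TPM in hete and 728.82, 729.08, 696.68 and 665.06 TPM in homo, again with hete replicate 3 on top (0.10, SE 0.09; 0.03 without hete replicate 2 and 0.15 without hete replicate 3). Creld2 and Sdf2l1, co-factors of ER folding that are induced under ER stress, gave 0.09 (SE 0.09) and 0.08 (SE 0.15) on the same scale.

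Xbp1, the transcription factor of the IRE1 arm, was the member on the negative side. It had 131.11, 120.41, 153.93 and 144.57 TPM in hete and 159.86, 126.16, 116.18 and 109.61 TPM in homo. The homo libraries held both the highest value and the 2 lowest (log2 fold change -0.11, SE 0.12). Its active form arises by cytoplasmic splicing, which a gene-level value does not show. Herpud1, which serves the degradation of ER proteins, had 76.26, 87.39, 88.66 and 106.47 TPM in hete and 107.08, 89.26, 88.83 and 79.77 TPM in homo (0.03, SE 0.11). Its highest values, in homo replicate 1 and hete replicate 4, lay within 1 TPM of each other.

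ER members were high or low together in certain libraries of both groups. In hete replicates 1 and 2, 0 of 7 ER members lay above their own mean over the 8 libraries. In hete replicate 3 and in homo replicate 1, 6 of 7 did, and in homo replicate 2, 5 of 7. Over all genes tested, the share above their own mean was 32.2% and 45.5% in hete replicates 1 and 2, 54.7% in hete replicate 3, 61.9% in homo replicate 1 and 46.5% in homo replicate 2. The sum of ER members ranged from 1819 TPM in hete replicate 2 to 2398 TPM in hete replicate 3, a span within hete that covered all homo sums (2028 to 2360 TPM). Leaving out hete replicate 3 moved the branch median from 0.09 to 0.18, and leaving out hete replicate 2 moved it to 0.03.

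Other genes of ER protein quality control were counted in the same way. Of 32 such genes, 7 lay above their own mean in hete replicate 1 and 7 in hete replicate 2. In hete replicate 3 it was 24 and in hete replicate 4 it was 21. In homo replicates 1 to 4 it was 25, 21, 16 and 10. Of the 7 ER members, 3 lay above their mean in hete replicate 4, 2 in homo replicate 3 and 2 in homo replicate 4. Over all genes tested, the shares in those 3 libraries were 55.7%, 56.0% and 44.1%. Between groups, 19 of the 32 were higher and 13 lower in homo with a median log2 fold change of 0.01, and 14 were higher and 18 lower under quantile normalization. None changed. Those with the smallest p were Calr, the lectin chaperone calreticulin, at 0.17 (SE 0.09), its partner isomerase Pdia3 at 0.10 (SE 0.07), and Syvn1, a ubiquitin ligase of ER-associated degradation, at 0.12 (SE 0.11). Calr had 911.29, 913.95, 1117 and 978.11 TPM in hete and 1206, 1125, 1057 and 1011 TPM in homo, with hete replicates 1 and 2 lowest.

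**Figure D4:**
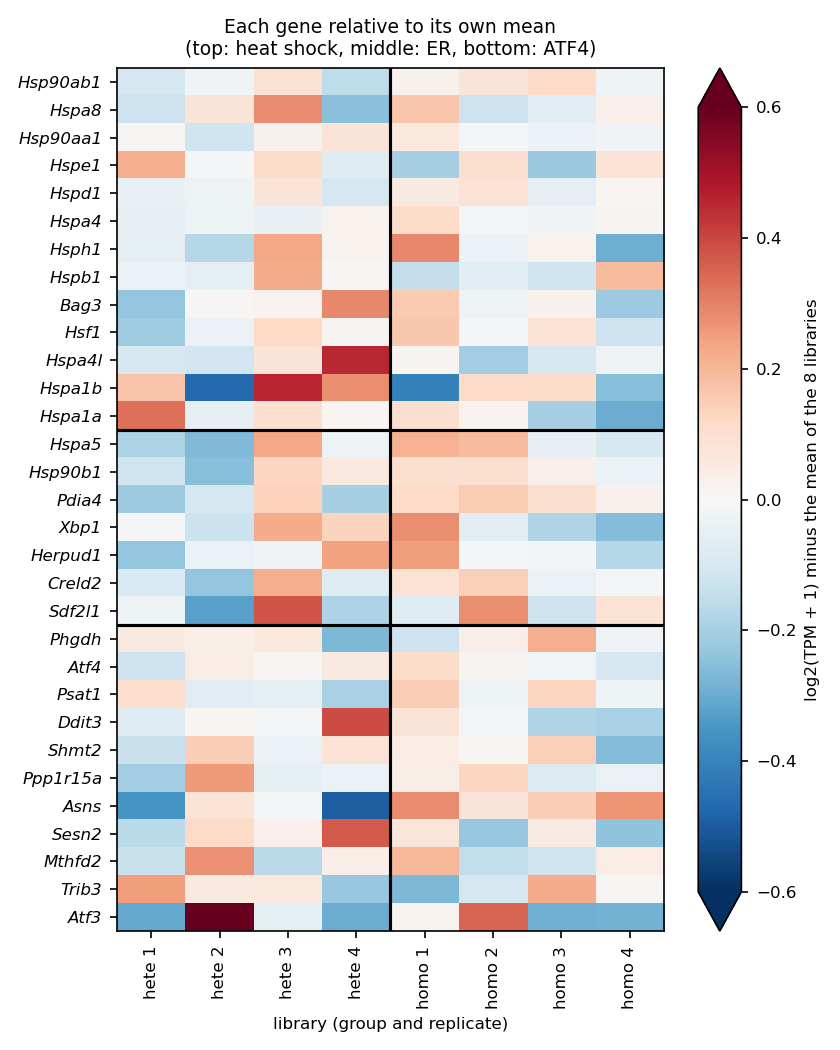
Log2(TPM + 1) of each tested member minus its mean over the 8 libraries, with genes in rows by branch and libraries in columns. Colours saturate at 0.6, which Atf3 in hete replicate 2 exceeds. ER genes are low in hete replicates 1 and 2, while Ddit3 and Sesn2 are high and Asns and Phgdh low in hete replicate 4.

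In the ATF4 branch, 5 tested members had a positive and 6 a negative log2 fold change, or 4 and 7 under quantile normalization or rescaling, and none changed. A single library turned this split, which was 8 and 3 without hete replicate 2 and 3 and 8 without hete replicate 1. Atf4 had 126.27, 142.23, 138.95 and 143.03 TPM in hete and 148.69, 139.32, 136.34 and 128.22 TPM in homo. Its log2 fold change was 0.01, with an interval of -0.14 to 0.15. Ddit3, which encodes the pro-apoptotic factor CHOP, had 42.6, 45.25, 44.54 and 59.18 TPM in hete and 47.47, 44.52, 39.49 and 39.19 TPM in homo (-0.16, SE 0.11). Hete replicate 4 stood above the rest, and without it the log2 fold change of Ddit3 was -0.05. Atf3, a factor induced by many stresses, had 1.45, 4.49, 1.92 and 1.46 TPM in hete and 2.07, 2.85, 1.48 and 1.49 TPM in homo. Its log2 fold change of -0.10 (SE 0.27) became 0.17 without hete replicate 2.

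Stress regulators downstream of ATF4 overlapped between groups. Ppp1r15a, the GADD34 subunit that reverses eIF2 phosphorylation, had 18.03, 25.19, 20.09 and 20.4 TPM in hete and 21.59, 22.98, 19.71 and 20.39 TPM in homo (log2 fold change 0.02, SE 0.10). Like Atf3, it was highest in hete replicate 2 and next highest in homo replicate 2. Trib3, a pseudokinase that restrains ATF4, had 1.80 to 2.91 TPM in hete and 1.72 to 2.83 TPM in homo (log2 fold change -0.07, SE 0.16). Sesn2, which senses leucine and restrains mTORC1, had 7.15, 8.88, 8.31 and 10.76 TPM in hete and 8.6, 6.8, 8.44 and 6.72 TPM in homo (-0.17, SE 0.13). Without hete replicate 4 the value of Sesn2 was -0.08.

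Chac1, an enzyme that degrades glutathione, had 0.58, 0.92, 0.85 and 1.12 TPM in hete and 0.91, 1.15, 0.8 and 0.67 TPM in homo and was not tested. It lies on chromosome 2 with 7 protein-coding genes between it and Dnajc17 in the RefSeq annotation, and its groups overlapped.

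Among the amino acid and one-carbon enzymes of the branch, Asns stood apart in size. Asns, which makes asparagine, had 12.04, 16.63, 15.56 and 10.85 TPM in hete and 19.3, 16.62, 17.48 and 19.05 TPM in homo. Homo replicates 1, 3 and 4 lay above every hete value, while homo replicate 2 lay just under hete replicate 2. The means were 13.8 ± 2.76 TPM in hete and 18.1 ± 1.28 TPM in homo (SD, n = 4 each), a log2 fold change of 0.39 (SE 0.13, interval 0.10 to 0.68; limma-trend, unadjusted p = 0.0137, adjusted p = 0.710). The value lay between 0.29 without hete replicate 4 and 0.48 without hete replicate 2.

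The other enzymes did not share the size of that difference. Psat1, of serine synthesis, had 101.24, 89.92, 90.36 and 82.17 TPM in hete and 104.47, 92.27, 103.16 and 92.61 TPM in homo (0.11, SE 0.08). Phgdh, the first enzyme of serine synthesis, had 156.8, 155.4, 157.96 and 124.95 TPM in hete and 138.57, 155.4, 175.78 and 148.72 TPM in homo (0.06, SE 0.10). Shmt2 and Mthfd2, the mitochondrial one-carbon enzymes, gave -0.03 (SE 0.10) and -0.01 (SE 0.13). Shmt2 ran from 30.02 to 40.08 TPM and Mthfd2 from 5.70 to 8.05 TPM over the 8 libraries.

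Within the ATF4 branch, hete replicate 4 held the highest value of Ddit3 and of Sesn2 and the lowest of Asns, Psat1 and Phgdh. Of all 17811 genes tested, 3983 were highest and 2450 lowest in hete replicate 4. In that library Atf3, Trib3 and Ppp1r15a lay below their means and Atf4, Shmt2 and Mthfd2 above. Hete replicate 2 was above the mean for 10 of 11 tested members, and homo replicate 1 for 9 of 11. In homo replicate 1 most members of every branch lay above their means, with 10 of 13 in the heat shock branch, and in hete replicate 1 few did, with 4 of 13 heat shock, 0 of 7 ER and 3 of 11 ATF4 members. These were also the libraries with the largest and the smallest share of all genes above their means (61.9% and 32.2%).

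Other genes of the integrated stress response outside the 32 included values of similar size in both directions. Of 34 tested, 19 were higher and 15 lower in homo, with a median log2 fold change of 0.02, and none changed. Under quantile normalization 17 were higher and 17 lower. Ddit4, an inhibitor of mTORC1 that hypoxia and glucocorticoids also induce, had 50.44, 49.59, 51.07 and 57.06 TPM in hete and 38.34, 46.41, 38.12 and 41.4 TPM in homo. All 4 homo values lay below all hete values (limma-trend, log2 fold change -0.34, SE 0.08, interval -0.52 to -0.16, adjusted p = 0.551). In this list the groups were free of overlap for 3 of 34 genes, against 3.99% of all genes. Gpt2, a mitochondrial alanine transaminase, stood at 0.29 (SE 0.11) and Nupr1, a stress-induced chromatin protein, at -0.23 (SE 0.08).

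Of 39 other chaperone genes tested, 28 were higher and 11 lower in homo, where 56.3% of all genes were higher, and 26 were higher under quantile normalization. Their log2 fold changes ran from -0.17 to 0.17 with a median of 0.04. None changed, and 2 had an unadjusted p under 0.05, against 6.05% of all genes. Clpp, the mitochondrial matrix protease, stood at 0.16 (SE 0.06), Tcp1, a subunit of the cytosolic chaperonin, at 0.16 (SE 0.07) and Trap1, the mitochondrial HSP90, at 0.12 (SE 0.06). Trap1 had 47.04, 46.66, 45.54 and 46.26 TPM in hete and 52.26, 50.06, 52.19 and 47.29 TPM in homo. Its groups were free of overlap, as for 1 of the 39 genes of this list and 3.99% of all genes. Its interval of -0.01 to 0.25 included 0.

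Markers of cell types and of dissection also differed between libraries. Immediate early genes, which dissection can induce, summed to 215 to 250 TPM in hete and 240 to 254 TPM in homo, with 10 of 14 tested higher in homo (median log2 fold change 0.14; 9 of 14 under quantile normalization or rescaling). Hete replicate 4 held the highest values of Ddit3, Sesn2, Bag3, Hspa4l and Hsp90aa1. It was highest for 3 of 13 heat shock, 0 of 7 ER and 2 of 11 ATF4 members, and for 3983 of all 17811 genes tested. It was also lowest for 3 heat shock and 3 ATF4 members. Its immediate early sum of 250.2 TPM lay under those of homo replicates 2 and 3 (250.5 and 254.2 TPM). The same library had the highest summed hair cell markers (619.8 TPM, 333.6 to 530.0 TPM elsewhere) and the lowest erythroid sum (2471 TPM, 3121 to 5335 TPM elsewhere). Ocm alone gave 277.77 TPM of that hair cell sum. Single hair cell markers went both ways in that library. Pou4f3 and Slc26a5 were among those highest there (20.37 and 9.78 TPM), while Myo7a and Atoh1 were lowest there (14.1 and 0.36 TPM).

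Supporting cell markers summed to 7822 to 8971 TPM in hete and 8598 to 9211 TPM in homo. Tectb alone gave 3847 to 4359 TPM of these sums in hete and 4466 to 4879 TPM in homo. Epyc gave 1415 to 1921 TPM in hete and 1369 to 1751 TPM in homo. Of 12 supporting cell markers tested, 9 were higher in homo, and 8 under quantile normalization or rescaling. Without hete replicate 1 it was 7, and without hete replicate 4 it was 11. By library the sum was 7822, 7834, 7979 and 8971 TPM in hete and 9211, 8827, 9060 and 8598 TPM in homo. ER members were low in hete replicates 1 and 2 and high in hete replicate 3 and homo replicates 1 and 2. Granulocyte markers summed to 6.69 to 9.14 TPM in hete and 12.5 to 60.2 TPM in homo, and 4 of the 10 were abundant enough to be tested. All 4 were higher in homo. The count is partly set by the filter, as Ngp passed it through homo (means 0.33 TPM in hete and 2.59 TPM in homo). The largest sum, in homo replicate 1, held 33.1 TPM of S100a9. The sums of macrophage, neuron, glia, mesenchyme, hair cell and erythroid markers overlapped between groups. Of the markers tested, 11 of 12 for neurons, 8 of 10 for glia, 6 of 10 for mesenchyme, 4 of 10 for macrophages, 4 of 13 for hair cells and 0 of 6 for erythroid cells were higher in homo. Under quantile normalization these counts were 10 for neurons and 7 for glia and did not move for the others. Leaving out single libraries moved them further. Without hete replicate 1 they were 6 of 12 for neurons, 4 of 10 for glia, 4 of 10 for mesenchyme and 1 of 13 for hair cells. Without homo replicate 4 they were 6 for neurons, 6 for glia, 9 for mesenchyme and 8 for macrophages. No marker of these lists changed, and the smallest adjusted p by limma-trend was 0.465, in the neuron list. At an unadjusted p under 0.05 stood 6.05% of all genes. At that p, 4 of 14 immediate early, 3 of 12 supporting cell and 3 of 12 neuron genes were higher in homo. So were 3 of 4 granulocyte and 1 of 10 glia genes. Lower were 3 of 13 hair cell, 1 of 14 immediate early and 1 of 10 macrophage genes. Groups were free of overlap for 3 supporting cell, 2 immediate early, 2 granulocyte and 1 neuron genes, against 3.99% of all genes. The part of these cells and of dissection in the values of the members was not tested.

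In the authors' deposited table of gene ontology terms for this comparison, which lists 387 terms, none of the 60 genes named was among the 32 members or the other genes of the 3 pathways. The words unfolded, chaperone, protein folding and endoplasmic reticulum stress occurred in none of its terms.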

How the data were processed

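The authors deposited TPM per gene, rounded to 2 decimals, for 4 hete and 4 homo libraries. Fastp, HISAT2, StringTie, RSEM, DESeq2 and GRCm39 are named, without roles or versions, per the submitters' processing notes. A deposited enrichment table holds p-values per term. A table of splicing event numbers was not used.

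Log2(TPM + 1) was fitted with limma 3.58.1 (R 4.3.3; trend and robust eBayes, all 8 libraries, genotype only) for all genes averaging 1 TPM or more, and p-values were adjusted by Benjamini-Hochberg over all of them. The steps were tested on simulated data. Gene copies were sought among GENCODE M21 transcripts with blastn 2.17.0 (E-value limit 1e-20, at least 95% identity over 200 bases); figures used matplotlib 3.10.9. Coordinates are those of the RefSeq promoters (GRCm38.p6), not of the authors' build.

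All 32 members are named, with the 3 genes of smallest p from each of 3 wider lists. Members and lists were chosen with earlier results of these data known. Replicate numbers were not taken as pairs of libraries. TPM keeps no read depth, so precision rests on the spread between libraries.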

Additional observations from a re-analysis of the deposited data

Results flagged for a closer look

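Among 70 groups of 4 values examined, 3 had a library far from the other 3, where chance flags about 1 in 20. Phgdh in hete replicate 4 was low at 124.95 TPM, against 155.4 to 157.96 TPM in the other hete libraries. Ddit3 in hete replicate 4 was high at 59.18 TPM, against 42.6 to 45.25 TPM. Atf3 in hete replicate 2 was high at 4.49 TPM, against 1.45 to 1.92 TPM.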

How the results depend on the processing

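At an adjusted p under 0.05, 2 genes of the whole table changed, none of them a member. The count was 1 without the filter on low values, 1 to 5 when each library was left out (5 without hete replicate 3, and 4 without the first or the fourth homo library; leaving out hete replicate 1, or the homo library numbered 2 or 3, gave 1), and 1 with the replicate block. Same-numbered libraries did not deviate together over all genes tested (correlations -0.08, -0.03, 0.05 and 0.01 for numbers 1 to 4). The numbers were therefore not taken as pairs, although such correlations could miss a pairing that moves few genes. No member changed under any of 15 other settings or with Hspa8 and Gm15459 added together, a setting chosen after seeing the data, and the smallest adjusted p of a member by limma over those 15 was 0.620. Of the 31 tested members, 17 kept their sign in all of the 15 in which they could be tested and 14 did not.

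Under quantile normalization the log2 fold change was -0.0108 for Atf4 and -0.0063 for Herpud1. Rescaling over protein-coding nuclear genes gave -0.0002 for Atf4, -0.0002 for Hspa8 and -0.0022 for Hsp90aa1. Leaving out each library gave -0.0247 to 0.1069 for Phgdh, -0.0353 to 0.0401 for Atf4, -0.0846 to 0.0494 for Shmt2, -0.0415 to 0.112 for Ppp1r15a and -0.0785 to 0.0795 for Mthfd2. It gave -0.1617 to 0.005 for Trib3, -0.2336 to 0.1683 for Atf3, -0.0526 to 0.1113 for Herpud1, -0.0112 to 0.2236 for Sdf2l1 and -0.0767 to 0.1003 for Hspa8. The range was -0.0359 to 0.0301 for Hsp90aa1, -0.1091 to 0.0846 for Hsph1, -0.1219 to 0.0529 for Bag3 and -0.007 to 0.1056 for Hsf1. The cause of these sign changes was not tested. Of the members that kept their sign, those whose range is not given above had values of 0.03 to 0.18 for Creld2, -0.21 to -0.05 for Ddit3, 0.06 to 0.14 for Hsp90ab1, -0.25 to -0.11 for Hspa1a, -0.41 to -0.10 for Hspa1b, 0.02 to 0.07 for Hspa4 and -0.22 to -0.04 for Hspa4l. The others had -0.14 to -0.01 for Hspb1, 0.02 to 0.09 for Hspd1, -0.17 to -0.07 for Hspe1, 0.15 to 0.27 for Pdia4, 0.06 to 0.16 for Psat1, -0.26 to -0.08 for Sesn2 and -0.22 to -0.04 for Xbp1. Read depth is not held by TPM, and with 4 libraries a group the precision of low genes such as Atf3 is limited by their spread.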
